A study of Mus musculus with 10 samples.

Results

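The genes described here are those of RNA processing, the ribosome and translation among the genes that the authors listed as different between mouse ureteric buds cultured with and without GDNF. They were found by words in the authors' gene descriptions (ribosom, ribonucleoprotein, nucleol, splicing, RNA or translation). The words picked out 68 of the 682 genes or unnamed probe sets in the authors' 2 deposited comparison tables. Of these members, 65 had exactly 1 current gene and 3 were probe sets that match several genes. A total of 61 have a role in RNA or translation, and the other 7 were caught by a word in the description of a gene with another role. On the 430A array type 52 members were listed, on U74Av2 33, and on both 17. All 52 and all 33 passed the filter on dim probe sets. Because the authors' tables hold probe sets selected for a difference on these same arrays, the members' directions, counts and medians are descriptions and not tests.

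The study isolated E11.5 ureteric buds of the Swiss Webster mouse strain and grew them in Matrigel, a basement membrane gel. The plus GDNF group received 100 ng/mL of GDNF for 16 hours before RNA extraction, and the minus GDNF group was labelled as 16 hours without it. Affymetrix U74Av2 and 430A arrays were each hybridised with 3 plus GDNF and 2 minus GDNF samples, 10 arrays in all, and the RNA of 1 array came from some 5 to 6 pooled batches, each of 30 to 40 buds. The labels give no dose or other treatment for the minus GDNF group, and they do not say whether the samples of equal number on the 2 types shared RNA. The p-values below measure only the spread between these pooled samples.

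The ureteric bud is the epithelial tube whose branches become the kidney's collecting ducts, and GDNF, made by the surrounding mesenchyme, drives its growth through the receptor Ret. A growing cell makes ribosomes in the nucleolus, where ribosomal RNA is transcribed, modified by small nucleolar ribonucleoproteins (snoRNPs), cut and joined with ribosomal proteins. Messenger RNA is spliced by the spliceosome, whose small nuclear ribonucleoproteins (snRNPs) carry a ring of Sm or LSm proteins, and is then read with the help of initiation and elongation factors and charged transfer RNAs.

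Of the members, which had been selected for a difference, 50 of 52 on 430A and 31 of 33 on U74Av2 had a higher mean with GDNF. Of all probe sets, not so selected, 36.7% and 43.7% did. For the RNA and translation members the counts were all 46 on 430A and all 29 on U74Av2. The roles were assigned with earlier results known, and every lower member was among those given another role. Among these was Rnase4, a secreted ribonuclease. The RNA and translation members had a median difference of 0.60 on the log2 scale on 430A, or 1.52-fold, with a range from 0.39 to 1.06. On U74Av2 it was 0.71, or 1.63-fold, with a range from 0.41 to 1.46. Over all probe sets tested the median was -0.07 on 430A and -0.04 on U74Av2. Among the other listed genes, 388 of 522 on 430A (74.3%) and 227 of 262 on U74Av2 (86.6%) were higher with GDNF. The other listed genes that were higher had medians of 0.68 and 0.88, above those of the RNA and translation members. The plot of differences by role shows the range of these members, which the authors' filter cuts from below.

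**Figure D1:**
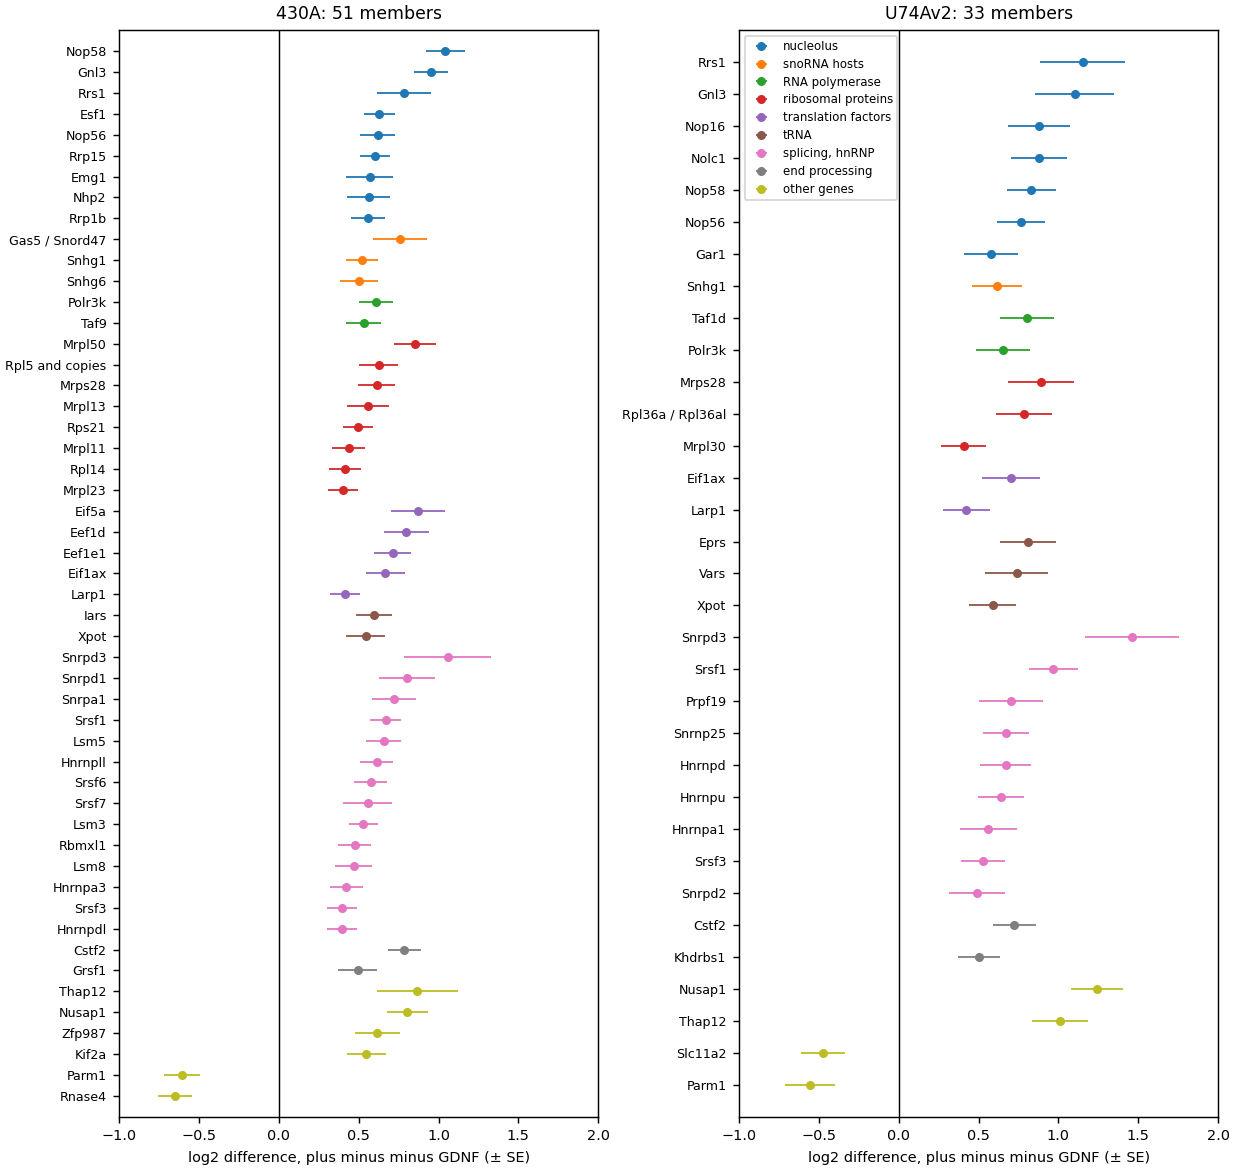
Log2 difference between plus and minus GDNF (horizontal axis, with standard error) for 51 of the 52 members on 430A and the 33 on U74Av2, coloured by role. All RNA and translation members shown lie right of 0, from 0.39 to 1.06 on 430A and 0.41 to 1.46 on U74Av2, and 2 of the other genes on each type lie left of it.

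No member passed an adjusted p of 0.05 in limma on either type. Here a test was made for every probe set of a type, 3 arrays against 2, with Benjamini-Hochberg adjustment over all of them. The share of all probe sets that passed was 0% on 430A (0 of 19521) and 0.00944% on U74Av2 (1 of 10588). At an unadjusted p of 0.05, 50 members were higher and 2 lower on 430A, against 8.21% and 5.05% of all probe sets. On U74Av2 31 were higher and 2 lower, against 7.77% and 1.02%. The lowest adjusted p of a member was 0.054 on 430A, shared by Nop58 and Gnl3, and 0.15 on U74Av2. At an adjusted p of 0.1, 9 members were higher on 430A (background 0.902%) and 1 was lower (background 0.113%), and on U74Av2 0 members were higher (background 0.0472%). Every plus GDNF array was above every minus GDNF array for 50 of 52 members on 430A and 31 of 33 on U74Av2, where 15.3% and 17.5% of all probe sets had this pattern. For the other 2 members on each type every plus GDNF array was below, a pattern of 15.7% and 5.17% of all probe sets. Nothing can be read from these shares about the members, since the authors' filter asked for a bound on the fold above 1.2 with 90% confidence and a difference of means above 100 on the same arrays.

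Sequence upstream of the members was examined for motifs, because genes whose levels differ together are often compared by their promoters. RefSeq promoters (GRCm38.p6) were matched for 48 of the 58 RNA and translation members with 1 current gene, and the 250 bases before the start of the gene were searched on both strands. The 7-letter motif CCGGAAG, which ETS-family factors are known to bind, was in 11 of 48 (22.9%). It was in 61 of 449 other listed genes (13.6%) and in 9.13% of all protein-coding promoters (7.05% of all promoters). Its holders were Eif1ax, Emg1, Gar1, Grsf1, Hnrnpd, Lsm5, Nhp2, Nolc1, Prpf19, Rps21 and Srsf7. The E-box CACGTG, which Myc and related factors are known to bind, was in 5 of 48 (10.4%), against 44 of 449 other listed genes (9.8%) and 6.64% of protein-coding promoters. Its holders were Hnrnpa3, Hnrnpd, Iars, Rpl14 and Xpot. A 10-letter palindrome known from binding by BANP was in 0 of 48, against 5 of 449 other listed genes (1.11%) and 0.589% of protein-coding promoters. The palindrome bound by NRF1, also of 10 letters, was in 1 of 48 (2.08%), against 9 of 449 (2.0%) and 1.06%. None of the 4 motifs contains another, and a match is only the presence of these letters.

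The promoters of 5 members are shown to let the motif be seen in its setting, with the motif in capitals and the last base next to the start of the gene. Gar1 (chr3:129831397-129831646, minus strand), Nhp2 (chr11:51619523-51619772, plus strand) and Nolc1 (chr19:46075597-46075846, plus strand) are nucleolar genes with CCGGAAG. The first base of the motif as printed lies 43, 23 and 14 bases before the start. In Gar1 the motif stands on the opposite strand and so is printed as its reverse complement.
Gar1: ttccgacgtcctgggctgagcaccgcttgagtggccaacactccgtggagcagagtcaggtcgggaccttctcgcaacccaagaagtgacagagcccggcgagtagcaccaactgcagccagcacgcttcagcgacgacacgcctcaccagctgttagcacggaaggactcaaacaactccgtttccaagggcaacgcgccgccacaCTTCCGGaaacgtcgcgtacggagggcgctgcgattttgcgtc
Nhp2: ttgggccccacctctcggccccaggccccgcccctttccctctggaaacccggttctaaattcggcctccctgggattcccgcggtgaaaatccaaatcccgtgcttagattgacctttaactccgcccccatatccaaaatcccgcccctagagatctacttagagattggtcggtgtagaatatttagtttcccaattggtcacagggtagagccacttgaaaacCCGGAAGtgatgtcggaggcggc
Nolc1: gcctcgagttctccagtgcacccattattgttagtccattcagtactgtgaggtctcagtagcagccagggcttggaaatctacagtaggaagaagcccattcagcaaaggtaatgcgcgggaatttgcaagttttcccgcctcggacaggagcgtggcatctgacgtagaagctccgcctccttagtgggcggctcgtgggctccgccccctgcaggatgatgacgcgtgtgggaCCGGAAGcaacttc
Xpot (chr10:121626333-121626582, minus strand) holds the E-box with its first base 231 bases before the start, and Nop58 (chr1:59684756-59685005, plus strand), the nucleolar member with the largest difference on 430A, holds none of the 4 motifs in this window.
Xpot: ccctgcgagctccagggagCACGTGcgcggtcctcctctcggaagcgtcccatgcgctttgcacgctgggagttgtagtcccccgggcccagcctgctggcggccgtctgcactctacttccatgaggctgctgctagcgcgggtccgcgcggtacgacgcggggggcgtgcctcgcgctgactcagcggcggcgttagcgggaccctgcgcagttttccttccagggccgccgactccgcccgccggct
Nop58: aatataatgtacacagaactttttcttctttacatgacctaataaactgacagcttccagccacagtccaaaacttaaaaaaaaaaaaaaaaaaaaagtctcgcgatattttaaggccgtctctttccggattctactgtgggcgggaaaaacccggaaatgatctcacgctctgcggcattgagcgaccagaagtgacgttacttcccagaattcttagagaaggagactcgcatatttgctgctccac

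The nucleolar members held the largest difference outside the splicing group on 430A. There were 12 of them, 9 listed on 430A and 7 on U74Av2, with median log2 differences of 0.62 (range 0.56 to 1.04) and 0.88 (range 0.58 to 1.15). Nop58 and Nop56 are core proteins of the box C/D snoRNPs, which guide the ribose methylation of ribosomal RNA. For Nop58 the plus GDNF arrays on 430A read 1127, 1039.9 and 984 in intensity (the deposited linear scale), and the minus GDNF arrays 553 and 469. The groups stood clear of each other, with a log2 difference of 1.04 ± 0.12 (SE; n = 3 and 2, limma adjusted p = 0.054), or 2.06-fold. On U74Av2 Nop58 read 697, 742 and 806 with GDNF and 451 and 391 without, a log2 difference of 0.83 ± 0.15 (limma adjusted p = 0.2). Nop56 read 1206, 1165 and 1066 with GDNF on 430A and 798 and 697 without, a log2 difference of 0.62 ± 0.11 (limma adjusted p = 0.11). Its U74Av2 arrays read 1378, 1423 and 1227 against 744 and 836, or 0.77 ± 0.15 on the log2 scale (limma adjusted p = 0.21). Both members of the pair were separated by group on both types, as was every member on the types that list it. The authors' filter on the same arrays favours such separation. Of all probe sets, 15.3% on 430A and 17.5% on U74Av2 had every plus GDNF array above every minus GDNF array.

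Gnl3 (nucleostemin), a nucleolar GTPase known from dividing stem cells, read 1145, 1064 and 1029 with GDNF on 430A and 589.9 and 524 without. Its log2 difference was 0.96 ± 0.11 (limma adjusted p = 0.054), or 1.94-fold. On U74Av2 it read 671, 523 and 403 against 271 and 217, so its plus GDNF samples were spread more widely there, and the log2 difference was 1.10 ± 0.25 (limma adjusted p = 0.27). Rrs1, known from yeast as an assembly factor of the large ribosomal subunit, read 667, 619.9 and 505 with GDNF on 430A and 389 and 305 without, a log2 difference of 0.78 ± 0.17 (limma adjusted p = 0.15). Its U74Av2 arrays read 691, 667 and 500.1 against 355 and 214, or 1.15 ± 0.27 on the log2 scale (limma adjusted p = 0.28). Sample 3 was the lowest plus GDNF sample and sample 2 the lower minus GDNF sample for Rrs1 and Gnl3 on both types. The plot of intensities by array shows this order, which was the reverse of that of Snrpd3 among the plus GDNF samples.

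**Figure D2:**
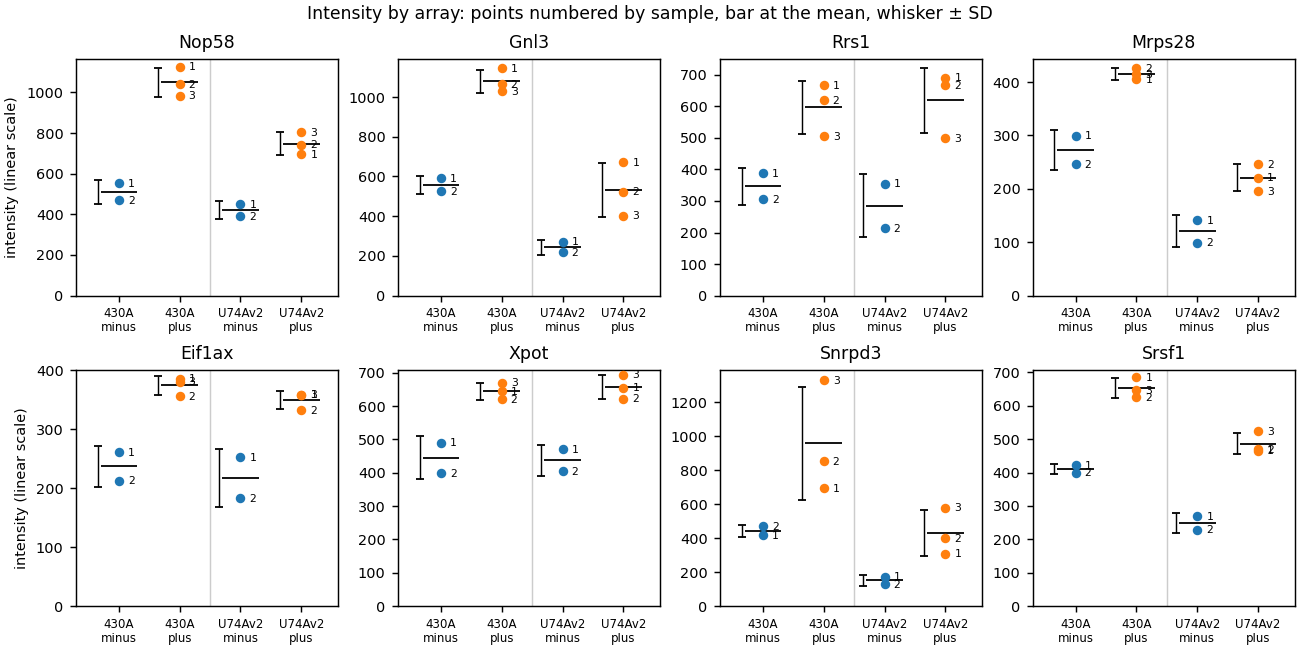
Intensity on the linear scale (vertical axis) of 8 members on every array, by array type and GDNF group; points carry the sample number, the horizontal bar is the mean and the whisker the SD. In all 8 the plus GDNF points lie above the minus GDNF points on both types, a pattern of 15.3% of all probe sets on 430A and 17.5% on U74Av2. For Snrpd3 plus GDNF sample 3 stands highest on both (1331 on 430A and 579 on U74Av2).

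The other nucleolar members were each listed on 1 type. Nolc1, a nucleolar phosphoprotein that binds snoRNPs, read 593, 503 and 596 with GDNF on U74Av2 and 344 and 272 without, a log2 difference of 0.88 ± 0.17 (limma adjusted p = 0.21). Nop16, known from yeast in large subunit assembly, read 542, 679 and 706 against 395 and 305 on U74Av2, also 0.88 on the log2 scale, with an SE of 0.20 (limma adjusted p = 0.26). In both, the lowest plus GDNF array was above the higher minus GDNF array by over 100 in intensity. Gar1 and Nhp2 are core proteins of the box H/ACA snoRNPs, which guide pseudouridylation. Gar1 had a log2 difference of 0.58 ± 0.17 on U74Av2, which is 1.50-fold, where the authors' deposited table gives 1.8. The authors' group means on U74Av2 differed from those of the deposited arrays for other members too. For Hnrnpd they were 1467 without and 2284 with GDNF, against 1237 and 1974 here, though the folds were near, at 1.56 and 1.59. Nhp2 had one of 0.56 ± 0.14 on 430A. Esf1, Rrp15 and Emg1, known from yeast in the processing of the ribosomal RNA precursor or in subunit assembly, and Rrp1b, a nucleolar protein related to a yeast processing factor, lay between 0.56 and 0.63 on 430A.

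Host RNAs of small nucleolar RNAs (snoRNAs) were also among the members. Snhg1 is a noncoding RNA whose introns carry snoRNAs. It read 1117, 1026 and 1175 with GDNF on 430A and 762 and 776 without, a log2 difference of 0.52 ± 0.10 (limma adjusted p = 0.12). Another listed probe set of Snhg1 on 430A gave 0.62. The U74Av2 arrays read 1521, 1539 and 1841 against 1042 and 1085, or 0.61 ± 0.15 (limma adjusted p = 0.32). Plus GDNF sample 3 was the highest on both types. A probe set on 430A that matches Gas5 and the snoRNA Snord47 inside it read 298, 321 and 321 with GDNF and 154 and 223 without, a log2 difference of 0.76 ± 0.17 (limma adjusted p = 0.16). Snhg6, another host, had a log2 difference of 0.50 ± 0.12 on 430A. Outside the members, the authors' list for 430A also held Gas5 alone, at 0.87, and the host Snhg5, at 0.76. In the RefSeq gene table snoRNA genes also lay inside the span of 5 of 56 protein-coding members with an RNA or translation role (8.93%), namely 5 in Nop56, 4 in Nop58, 3 in Gnl3, 6 in Taf1d and 2 in Iars. The share was 17 of 571 (2.98%) for other listed protein-coding genes and 372 of 21900 (1.7%) for all protein-coding genes. The strand of the snoRNA genes was not compared with that of the host, and the arrays' probe sets for these genes are not known to read the snoRNAs themselves.

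Members of the transcription machinery included Polr3k, a subunit of RNA polymerase III, which makes transfer RNA and the small ribosomal RNA. Polr3k read 433, 434 and 467 with GDNF on 430A and 274 and 311 without, a log2 difference of 0.61 ± 0.10 (limma adjusted p = 0.11). Its U74Av2 arrays read 377, 347 and 417 against 268 and 217, or 0.65 ± 0.17 (limma adjusted p = 0.33). The groups were apart on both types, as for every member, and the differences were nearly equal. Taf1d, a subunit of the selectivity factor of RNA polymerase I, read 379.7, 463 and 446 against 269 and 223 on U74Av2, a log2 difference of 0.80 ± 0.17 (limma adjusted p = 0.24). Its second listed probe set gave 0.88. Taf9, a subunit of the general factor TFIID, read 1108, 979 and 984 against 739 and 678 on 430A, a log2 difference of 0.53 ± 0.11 (limma adjusted p = 0.14).

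Ribosomal proteins made up 10 members, and 6 of them belong to the mitochondrial ribosome. Their median log2 difference was 0.53 on 430A (8 members, range 0.40 to 0.85) and 0.78 on U74Av2 (3 members, range 0.41 to 0.89). Mrps28, a protein of the small mitochondrial subunit, read 405, 426 and 414 with GDNF on 430A and 299.5 and 246 without, a log2 difference of 0.61 ± 0.12 (limma adjusted p = 0.12). On U74Av2 it read 221, 246 and 196 against 141 and 99, or 0.89 ± 0.21 (limma adjusted p = 0.27). Minus GDNF sample 2 was the lower one on both types. Mrpl50 of the large mitochondrial subunit had the largest difference of the group on 430A, with 445, 387 and 351 against 229.8 and 206, or 0.85 ± 0.13 on the log2 scale (limma adjusted p = 0.089). Mrpl11, Mrpl13 and Mrpl23 lay between 0.40 and 0.56 on 430A and Mrpl30 at 0.41 on U74Av2. The 3 listed probe sets of Mrpl13 differed in size, at 0.56 for the one used here and 0.86 and 0.82 for the others.

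Only 4 members belong to the cytosolic ribosome. Rps21 of the small subunit had a log2 difference of 0.49 ± 0.10 and Rpl14 of the large subunit one of 0.41 ± 0.10, both on 430A. A probe set on 430A that matches Rpl5 and near-identical copies of it read 353, 304 and 324 with GDNF and 231 and 194 without, a log2 difference of 0.62 ± 0.12 (limma adjusted p = 0.13). A probe set on U74Av2 that matches both Rpl36a and Rpl36al read 262, 312 and 315 against 192 and 154, or 0.78 ± 0.17 (limma adjusted p = 0.26). Neither probe set can be given to 1 gene. Of 82 cytosolic ribosomal protein genes on a list of the pathway, 2 were named in the 430A table and 0 in that of U74Av2, and the others are not analysed here because probe sets outside the authors' tables carry no gene name.

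The translation factors had a median log2 difference of 0.71 on 430A (5 members, range 0.41 to 0.87). Eif5a, which carries the hypusine residue and helps elongation through difficult peptide bonds, had the largest difference of the group on 430A. It read 3409.8, 3575 and 2613 with GDNF on 430A and 1595 and 1880.3 without, a log2 difference of 0.87 ± 0.17 (limma adjusted p = 0.12), or 1.83-fold. Eef1d, part of the exchange factor that recharges the elongation factor carrying transfer RNA, read 859, 972 and 1137 against 549 and 582, or 0.80 ± 0.14 (limma adjusted p = 0.11). Eef1e1, a scaffold protein of the multisynthetase complex, read 889, 874 and 789 against 559 and 481, or 0.71 ± 0.12 (limma adjusted p = 0.095). In all 3 the groups were apart, as for every member, with plus GDNF sample 3 the lowest for Eif5a and Eef1e1 and the highest for Eef1d.

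Eif1ax, which helps the small ribosomal subunit scan for the start codon, was listed on both types. It read 386, 357 and 381 with GDNF on 430A and 261 and 213 without, a log2 difference of 0.67 ± 0.12 (limma adjusted p = 0.11). On U74Av2 the values were 359, 333 and 359 against 252 and 183, or 0.70 ± 0.18 (limma adjusted p = 0.33). Larp1, which binds messenger RNAs that begin with a pyrimidine tract, among them those of ribosomal proteins, had the smallest difference of the group on both types. It read 988, 912 and 1004 with GDNF on 430A and 719.7 and 732 without, a log2 difference of 0.41 ± 0.10 (limma adjusted p = 0.17). Its values on U74Av2 were 927, 771 and 859.6 against 631 and 637, or 0.42 ± 0.15 (limma adjusted p = 0.47).

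Transfer RNA members were the exporter Xpot and 3 synthetases that load amino acids onto transfer RNA. Xpot read 644, 620.1 and 671 with GDNF on 430A and 490.3 and 399.8 without, a log2 difference of 0.54 ± 0.12 (limma adjusted p = 0.16). The U74Av2 arrays read 656, 623 and 694 against 471 and 405, or 0.59 ± 0.15 (limma adjusted p = 0.32). The order of the 3 plus GDNF samples was the same on both types. Eprs, which loads glutamate and proline, read 600.0, 613 and 672 against 411 and 312 on U74Av2, a log2 difference of 0.81 ± 0.17 (limma adjusted p = 0.25). Vars, which loads valine, read 977, 864 and 744 against 592 and 445 there, or 0.74 ± 0.20 (limma adjusted p = 0.34). Iars, which loads isoleucine, read 1505, 1538 and 1578 against 1116 and 929.8 on 430A, or 0.60 ± 0.11 (limma adjusted p = 0.12), so its plus GDNF arrays were close together.

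Splicing and hnRNP genes were the largest role, with 21 members, 15 on 430A and 9 on U74Av2. Their median log2 differences were 0.57 (range 0.39 to 1.06) and 0.67 (range 0.49 to 1.46). Snrpd3, one of the Sm proteins that form the core ring of the spliceosomal snRNPs, had the largest difference of any member on both types. It read 692, 853 and 1331 with GDNF on 430A and 419 and 469.8 without, a log2 difference of 1.06 ± 0.27 (limma adjusted p = 0.2), or 2.08-fold. On U74Av2 it read 309, 399.6 and 579 against 174 and 130.5, or 1.46 ± 0.29 (limma adjusted p = 0.22), which is 2.75-fold. The plus GDNF group was widely spread on both types, sample 3 being highest and sample 1 lowest. The lowest plus GDNF array was above both minus GDNF arrays, as it was for every RNA and translation member under the authors' filter. Of all probe sets, 15.3% on 430A and 17.5% on U74Av2 had this pattern. Snrpd1, another Sm protein, read 1141, 1146 and 926 against 716 and 521 on 430A, a log2 difference of 0.80 ± 0.18 (limma adjusted p = 0.16). Its sample 3 was the lowest of the plus GDNF group, unlike that of Snrpd3. Snrpd2, also an Sm protein, had the smallest difference of the splicing members on U74Av2, 0.49 ± 0.18.

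Snrpa1, a snRNP protein of branch site recognition, read 843, 828 and 714 against 535 and 433 on 430A, a log2 difference of 0.72 ± 0.14 (limma adjusted p = 0.12), and its other 2 probe sets gave 0.90 and 0.86. Plus GDNF sample 3 stood highest for Prpf19, the core of a complex that activates the spliceosome (1236 on U74Av2, with samples 1 and 2 at 874 and 876) and lowest for Snrpa1.

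The SR proteins bind exons and promote their splicing. Srsf1 read 685, 626 and 646 with GDNF on 430A and 422 and 399 without, a log2 difference of 0.67 ± 0.10 (limma adjusted p = 0.08). The values on U74Av2 were 465, 471 and 523 against 269.8 and 228, or 0.97 ± 0.15 (limma adjusted p = 0.15), the lowest adjusted p of the RNA and translation members on that type. Srsf3 had smaller differences, with 682, 696 and 748 against 548 and 529.6 on 430A, or 0.40 ± 0.10 (limma adjusted p = 0.18). Its U74Av2 arrays read 2139, 2403 and 2262 against 1599 and 1542, or 0.53 ± 0.14 (limma adjusted p = 0.33). Both genes had their groups apart on both types, as every listed member did, and Srsf3 differed by 1.31-fold on 430A. Srsf6 and Srsf7 lay at 0.57 and 0.56 on 430A.

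The remaining splicing members were described by their range. Lsm3, Lsm5 and Lsm8, which belong to the LSm rings, lay between 0.47 and 0.66 on 430A. Snrnp25, of the minor spliceosome, lay at 0.67 on U74Av2. The hnRNPs, which coat nuclear transcripts, were Hnrnpa3, Hnrnpdl and Hnrnpll on 430A (0.39 to 0.61) and Hnrnpa1, Hnrnpd and Hnrnpu on U74Av2 (0.56 to 0.67). Rbmxl1, a retrogene copy of the RNA-binding protein gene Rbmx, lay at 0.48 on 430A, and its probe set may also read the parent gene. Hnrnpdl had the smallest difference of the RNA and translation members on 430A, 0.39 ± 0.09, with 826, 898 and 892 against 654 and 673.

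Of the RNA end processing and other RNA-binding members, Cstf2, a subunit of the cleavage stimulation factor that acts before polyadenylation, read 775, 698 and 792 with GDNF on 430A and 451 and 425 without. Its log2 difference was 0.79 ± 0.10 (limma adjusted p = 0.067). On U74Av2 it read 550.0, 524 and 509.8 against 325 and 315, or 0.72 ± 0.13 (limma adjusted p = 0.21), with both groups close within themselves. Grsf1, which binds RNA in mitochondrial granules, read 491, 477 and 584 against 359 and 373 on 430A, or 0.49 ± 0.12 (limma adjusted p = 0.19). Khdrbs1 (Sam68), an RNA-binding target of Src kinases, read 364, 360.5 and 359 against 260.5 and 250.3 on U74Av2, or 0.50 ± 0.13 (limma adjusted p = 0.33).

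The 7 members with another role held all the members that were lower with GDNF, namely Parm1, Rnase4 and Slc11a2, and the other 4 were higher. Parm1, a mucin-like membrane protein, was lower on both types, at 345, 351 and 382 with GDNF on 430A against 510.4 and 587 without, a log2 difference of -0.61 ± 0.11 (limma adjusted p = 0.11). Another listed probe set of Parm1 on 430A gave -0.47. On U74Av2 the values were 179.5, 204 and 223 against 287 and 306, or -0.56 ± 0.16 (limma adjusted p = 0.34). Rnase4, a secreted ribonuclease, lay at -0.65 on 430A and Slc11a2, an iron transporter, at -0.48 on U74Av2. Nusap1, a protein of the mitotic spindle, was higher, with 652, 702 and 594 against 405 and 339.7 on 430A, or 0.80 ± 0.13 (limma adjusted p = 0.092). The U74Av2 arrays read 432, 450.0 and 435 against 212 and 163, or 1.24 ± 0.16 (limma adjusted p = 0.15). Thap12, listed by the authors under the older symbol Prkrir, read 1379, 1005 and 774 against 634 and 497 on 430A, or 0.87 ± 0.26 (limma adjusted p = 0.24). Another listed probe set of Thap12 on 430A gave 0.95 ± 0.17 (limma adjusted p = 0.11). Its U74Av2 arrays read 1235, 914 and 1073 against 553 and 508, or 1.01 ± 0.18 (limma adjusted p = 0.19), and sample 1 was highest on both types. The motor protein gene Kif2a and the predicted zinc finger gene Zfp987 lay at 0.55 and 0.62 on 430A.

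**Figure D3:**
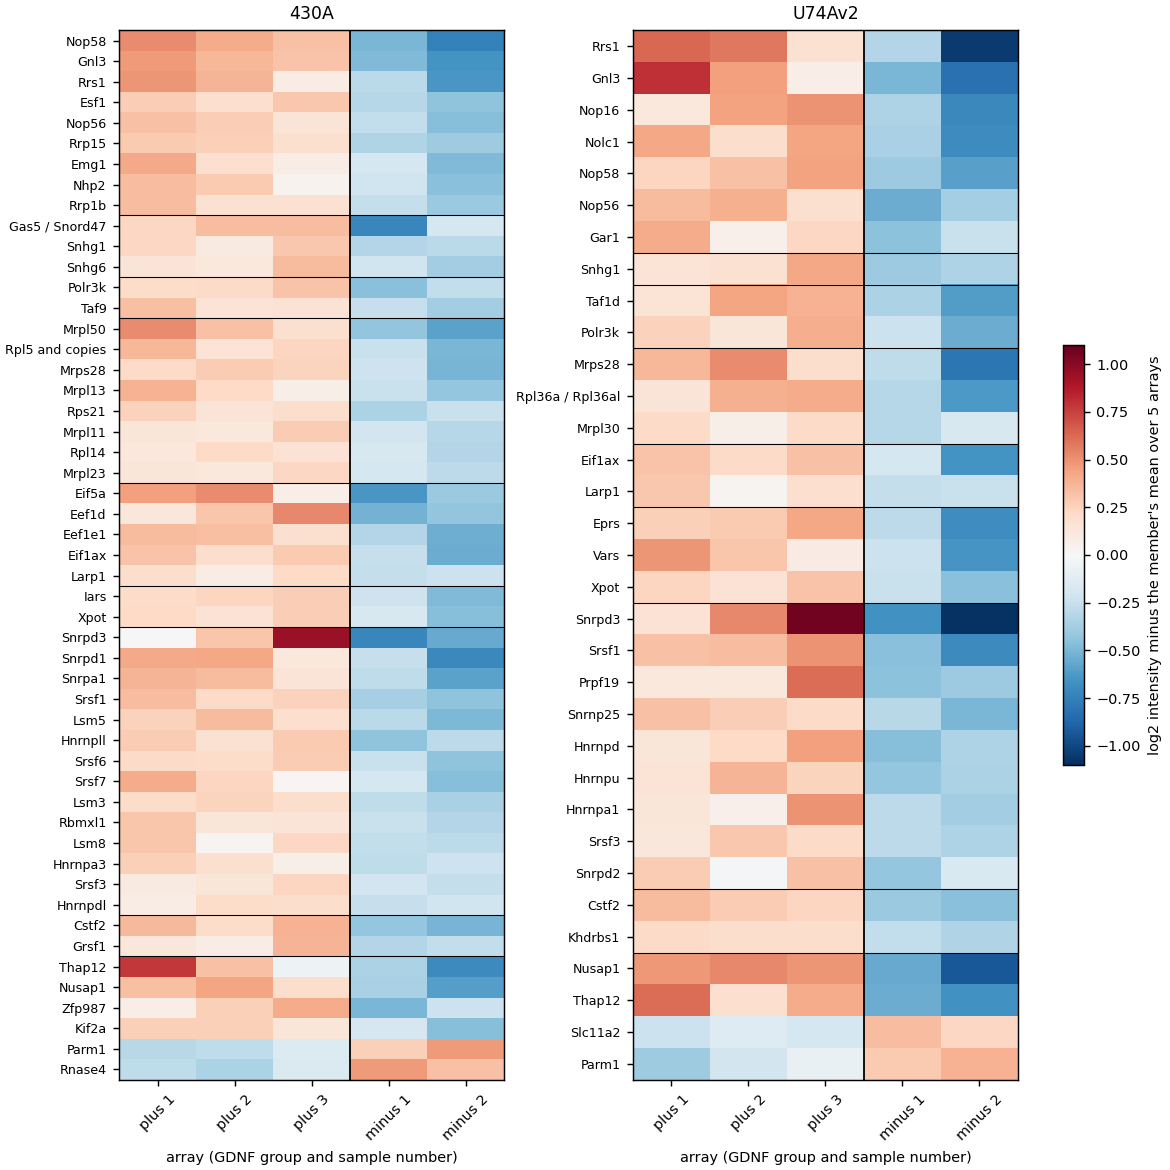
Log2 intensity of 51 members on 430A and 33 on U74Av2 on each array minus the member's mean over the 5 arrays of the type (colour, red high and blue low), with arrays in columns and members in rows, grouped by role with the other genes at the bottom. The plus GDNF columns are red and the minus GDNF columns blue for the RNA and translation members shown, except that Snrpd2 on U74Av2 lies just below its mean on plus 2, and plus 3 stands out for Snrpd3 on both types.

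The arrays of 1 group were not alike over the members. On 430A minus GDNF sample 2 was below sample 1 in 34 of the 46 RNA and translation members, where this held for 37.3% of all probe sets. On U74Av2 it was below in 20 of 29, against 35.5% of all. Plus GDNF sample 1 was the highest of its group in 21 of 46 on 430A (51.2% of all probe sets) and sample 3 in 16 of 29 on U74Av2 (57.8% of all). Arrays with the same group and number deviated together across the types. Over the 17 members on both types, the deviations from the group mean correlated at 0.761, 0.573 and 0.661 for plus GDNF samples 1, 2 and 3 and at 0.397 for either minus GDNF sample. Over all 187 genes listed on both types these values were 0.594, 0.408, 0.505 and 0.454. These correlations are across genes, which are not independent replicates, and the 2 types are therefore not treated as separate evidence. Whether RNA was shared was not tested.

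Between the 2 types the size of a difference was compared in a limma fit with an interaction of array type and GDNF over the 187 genes listed on both. With the 10 arrays taken as independent, 1 gene passed an adjusted p of 0.05 (0.535%) and 0 of the 17 members did, and at an unadjusted p of 0.05 0 members passed against 6.95% of the 187 genes. Because same-numbered arrays deviated together, the 5 pairs were also fitted as pairs, an alternative chosen after seeing the data. In that limma fit 3 genes passed the adjusted p of 0.05 (1.6%) and 0 members did, with a lowest member adjusted p of 0.15. At an unadjusted p of 0.05, 3 members passed there (Nusap1, Rrs1 and Snrpd3), against 16.6% of the 187 genes. The signed difference was more positive on U74Av2 for 15 of 17 members and for 149 of all 187 genes (79.7%). The members furthest apart were Nusap1, by 0.44 ± 0.21 on the log2 scale (limma adjusted p = 0.73), or ± 0.13 with pairs (limma adjusted p = 0.15). Snrpd3 followed, by 0.40 ± 0.40 (limma adjusted p = 0.87), or ± 0.17 with pairs (limma adjusted p = 0.28). Nop58 went the other way, with a difference smaller by 0.21 ± 0.19 on U74Av2 (limma adjusted p = 0.87). Larp1 was the closest, with 0.41 on 430A and 0.42 on U74Av2. Of the members on 430A 32.7% were also listed on U74Av2, and of those on U74Av2 51.5% were also listed on 430A, against 32.6% and 64.9% of the other listed genes.

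**Figure D4:**
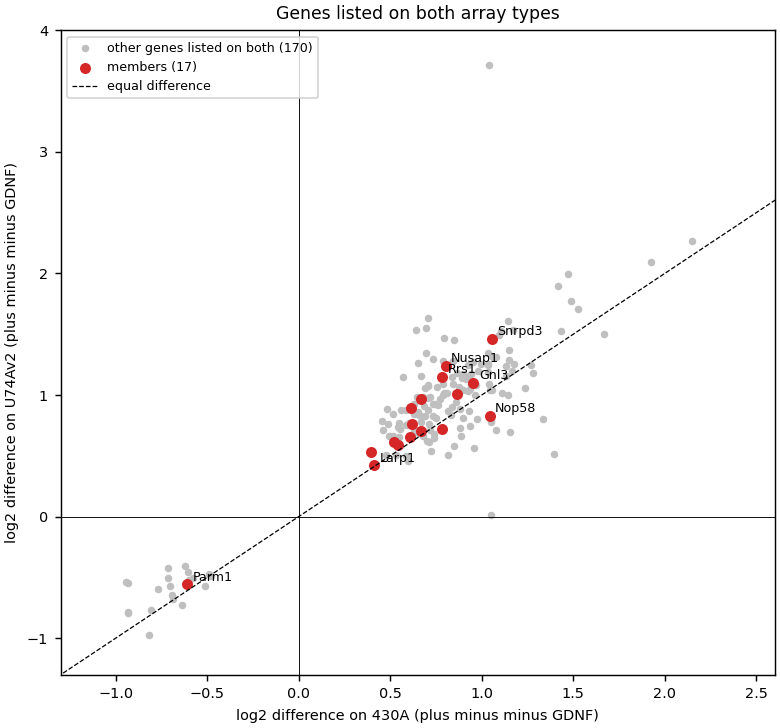
Log2 difference between plus and minus GDNF on 430A (horizontal axis) and on U74Av2 (vertical axis) for the 187 genes listed on both types, with the 17 members in red and a dashed line of equal difference. Of the members 15 lie above the line, with Nop58 and Cstf2 below it; the grey point at the top is a lower bound, since that gene was below the floor on both minus GDNF arrays of U74Av2.

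Genes of the same pathways outside the members were counted from 9 lists of 664 genes. Only genes in the authors' tables carry a name, so these too had been selected for a difference. The lists do not hold every gene of these pathways that the authors listed. Among those left out, Utp3 lay at 0.38 and Tma16 at -0.77 on 430A. On 430A 15 such genes were named, and all 15 were higher with GDNF, with a median log2 difference of 0.54, and 0 passed the adjusted p of 0.05 (0 of 19521 probe sets did). Of the 110 genes of ribosome biogenesis and the nucleolus, 7 were named there. The largest difference was that of Mki67, at 1.10, which the list holds although it is a coat protein of mitotic chromosomes. After it came Rpf2 at 0.70, which brings the small ribosomal RNA particle into the large subunit in yeast, and Ddx21 at 0.62, a nucleolar RNA helicase. The splicing list added Ddx39a at 0.71, an RNA helicase, and Srsf10 at 0.70, an SR protein. The list of polymerases and RNA modification added Nsun2 at 0.66, a methyltransferase of transfer RNA, Pus7 at 0.54, a pseudouridine synthase, and Ssb at 0.53, which binds new polymerase III transcripts. Abce1, which splits ribosomes after termination, lay at 0.67, and Thoc3 and Ran, both of nuclear export, at 0.41 and 0.38. On U74Av2 4 were named, all higher, with a median of 0.83 and 0 calls. They were Mki67 at 1.53, Nsun2 at 0.84 and the ribonuclease P subunit genes Rpp30 and Rpp14 at 0.81 and 0.48. Mki67 was the only gene there from the list of ribosome biogenesis and the nucleolus. No further gene was named from the lists of cytosolic ribosomal proteins, mitochondrial ribosome, synthetases or hnRNPs.

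Markers of the cell types that such cultures can hold also differed between the groups. Only markers in the authors' tables could be named, and these had been selected for a difference. Of 21 markers of mesenchyme and stroma, 7 were named on 430A and all 7 were lower with GDNF (median log2 difference -0.62), among them Sparc at -0.69 and Vim at -0.62. Their summed intensity ran from 5381 to 6612 on the plus GDNF arrays and from 9144 to 9660 on the minus GDNF arrays, and none was at 0. On U74Av2 3 were named, all lower (median -0.68), with sums of 2034 to 2128 and 3174 to 3247. Of 18 markers of bud epithelium, 7 were named on 430A, 4 higher and 3 lower, with sums of 15850 to 16300 and 16930 to 17170. The lower ones were Cdh16 at -0.92, Npnt at -0.77 and Krt8 at -0.52, and the higher ones Ret, Wnt11, Calb1 and Lhx1. On U74Av2 Ret, Wnt11 and Calb1 were named and all 3 were higher, with sums of 4339 to 5568 and 1711 to 2223. Wnt11 had the 1 limma adjusted p under 0.05 on that type (0.011). Its minus GDNF arrays read 39 and 30 there, both under the floor, so the fit saw no spread between them. With the floor at the 40th percentile 0 probe sets passed on U74Av2. No marker of endothelium or blood was named on either type. The part of these markers in the members' differences was not tested, and in bulk RNA fewer cells of a type and less RNA per cell cannot be told apart.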

How the data were processed

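Members, roles and pathway lists were chosen with earlier results of these data known. Per the labels' protocols, pooled total RNA was transcribed in vitro with a biotin label. Linear intensity per probe set and array was used as deposited by the authors, with a normalization not given in the sources used here. Group comparison in dChip 1.3, per the series text, gave the authors' deposited signed fold (a score, negative where lower). Names came from those lists through RefSeq's gene table for GRCm38.p6. Probe sets outside the lists have no name, so members on a type that does not list them were not analysed.

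Values under the 20th percentile of a table (143 on 430A, 65.0 on U74Av2) were raised to that floor before log2. Control probe sets (64 and 66), and those never above the floor, were dropped, which left 19521 and 10588. A gene was read by its named probe set with the highest mean. Whether a probe set named for 1 gene also reads other transcripts was not checked. This includes those whose names end in x_at or f_at, as for Eif5a, Eef1d and Rps21 on 430A and Nop58 on U74Av2. The 2 types were fitted separately with limma 3.58.1 under R 4.3.3 (eBayes, two-sided, adjusted by Benjamini-Hochberg over every probe set tested), after tests on simulated data. The differences planted in those data were larger than that of any member, so these tests do not show how well differences of the members' size are found. Every array is given for members listed on both types and, in each role, for up to 3 others with the largest difference. 1 member is counted but not reported here, by name or in the figures. Hnrnpdl and Prpf19 were added after their values were seen. Alternatives were quantile normalization, centring on medians, floors at the 10th and 40th percentile, a filter on dim probe sets, trended robust variance, an adjusted p of 0.1, the sample number as a block, the mean of a gene's probe sets, and each array left out. The number of arrays limits the precision.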

Additional observations from a re-analysis of the deposited data

How the results depend on the processing

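All 46 RNA and translation members on 430A and all 29 on U74Av2 were higher with GDNF under every alternative run, or 40 and 24 where only probe sets above the table's median level were kept. Calls on 430A depended on the setting. At an adjusted p of 0.05 in limma 0 members passed, against 3 with array medians centred (0.523% of all probe sets), 2 with trended robust variance (0.246%) and 9 with only probe sets above the median level (1.6%). At an adjusted p of 0.1 10 passed (1.01%). On U74Av2, and for the difference between types, 0 members passed under every alternative, the added fit with same-numbered arrays of the types paired included. The median log2 difference of the members on 430A, 0.60, became 0.65 with medians centred and 0.56 with the floor at the 40th percentile, and ranged from 0.52 (without minus GDNF sample 2) to 0.68 (without minus GDNF sample 1) with each array left out. On U74Av2 the median of 0.71 became 0.65 with quantile normalization, and ranged from 0.64 to 0.77 with each array left out. The cause of these shifts was not tested. Where a minus GDNF array was left out, the remaining one was assumed to vary like the other group.

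With the sample number as a replicate block, 0 members passed on either type, with medians of 0.61 and 0.70. At an unadjusted p of 0.05, 43 of 52 and 18 of 33 passed with the block, against 6.75% and 4.06% of all probe sets. The deviations of same-numbered plus and minus samples correlated across genes at -0.0153 and -0.623 on 430A and at 0.162 and -0.702 on U74Av2. With 2 minus GDNF arrays per type, the deviations of these arrays mirror each other. These values therefore cannot show whether the numbers mark pairs.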
